A study of Homo sapiens with 3 samples.

Results

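Nuclear receptors are transcription factors that bind DNA and, in most cases, switch their activity with a small lipid-like ligand. The 9 members described here are the receptor genes NR5A2, NR1H4, NR1I2, NR0B2, VDR, RXRA, PPARA, PPARG and NR2F2, each taken as the gene with 50 kb on either side on the human build hg19. The rule names genes and positions and uses no peak score or count. The intervals held 62 of the 63949 FOXA2 peaks in replicate 1 and 31 of the 26907 in replicate 2, counting a peak where its midpoint lay inside. Together they covered 1621 kb, of which 721 kb were gene span and 900 kb were flank.

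The study mapped FOXA2 by ChIP-seq, which sequences the DNA fragments that an antibody pulls down with a protein, in Caco2 cells. Caco2 is an established human colorectal adenocarcinoma line that is used as a model of absorptive intestinal epithelium, grown here in DMEM low glucose with 10% FBS and without any further treatment or genetic change named in the labels. The samples are 2 replicate immunoprecipitations with 1 FOXA2 antibody and 1 input library, which entered only through the authors' peak calls. Nothing in the labels ties the replicates to separate cultures, and their spread may be technical. Replicate 1 held 26183147 tags (aligned sequence ends) and replicate 2 held 15756702. A peak's score is the authors' own value, a tag count scaled to 10000000 tags per library, and 1 score unit equals 2.62 replicate 1 tags or 1.58 replicate 2 tags. The median peak scored 8 in replicate 1 and 11 in replicate 2. Peaks of both lists with at least 1 bp in common were taken as a shared site, given at its replicate 1 coordinates and counted from base 1.

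FOXA2 is a forkhead factor of endoderm-derived epithelia that can bind its sites in closed chromatin. In the gut and liver, the receptors listed here read the products of digestion and metabolism. NR1H4 (FXR) is the bile acid receptor, NR0B2 (SHP) is a corepressor that lacks a DNA-binding domain and is a classic NR1H4 target, and NR5A2 (LRH-1) drives bile acid, steroid and crypt-renewal genes and is restrained by NR0B2. NR1I2 (PXR) senses drugs and other foreign compounds, VDR senses vitamin D and controls intestinal calcium uptake, and RXRA is the partner with which NR1H4, NR1I2, VDR and the PPARs form heterodimers. PPARA and PPARG are fatty acid receptors, the first tied to fatty acid oxidation and the other to fat storage and colonocyte differentiation. NR2F2 (COUP-TFII) is an orphan receptor that often acts as a repressor on the same direct-repeat elements.

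The sequences of the peaks themselves are not printed, since no genome of the build of the peaks was used. Promoter windows of NR5A2 and RXRA are shown as examples, since the strongest FOXA2 site of each of these genes lay within 3 kb of the start edge of the gene. The strongest NR2F2 and NR0B2 sites did so too, but no window was found for NR0B2. The 2 windows of NR2F2 and the downstream window of RXRA held no match to the words sought and are not printed. The upstream window of RXRA held none either and is printed as an example. The printed windows come from RefSeq on GRCh38.p14, whereas the peaks are on hg19. It was thus not determined whether a peak covers the printed letters. Each runs from 250 bases before to 50 bases after an annotated start, 5′ to 3′ on the plus strand. Capitals mark any match to TGTTTAC or TATTTAC (letters of the forkhead motif) or to AGGTCA (the core element of nuclear receptors), sought on both strands. The first line is the upstream start of NR5A2 at chr1:200027460-200027759, the next is its downstream start at chr1:200042341-200042640, and the last is the upstream start of RXRA at chr9:134326205-134326504.
NR5A2 start 1: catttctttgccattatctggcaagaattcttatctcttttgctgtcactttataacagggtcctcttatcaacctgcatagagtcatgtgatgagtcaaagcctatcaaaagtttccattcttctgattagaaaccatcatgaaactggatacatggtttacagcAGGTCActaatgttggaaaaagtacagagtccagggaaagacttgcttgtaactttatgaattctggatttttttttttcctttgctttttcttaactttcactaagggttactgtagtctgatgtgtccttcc
NR5A2 start 2: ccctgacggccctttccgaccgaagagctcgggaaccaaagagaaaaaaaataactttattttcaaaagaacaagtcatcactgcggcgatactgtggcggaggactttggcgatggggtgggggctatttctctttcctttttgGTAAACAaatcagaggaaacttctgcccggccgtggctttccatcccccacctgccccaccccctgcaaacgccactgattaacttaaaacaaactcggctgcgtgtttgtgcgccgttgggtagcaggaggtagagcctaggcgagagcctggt
RXRA start 1: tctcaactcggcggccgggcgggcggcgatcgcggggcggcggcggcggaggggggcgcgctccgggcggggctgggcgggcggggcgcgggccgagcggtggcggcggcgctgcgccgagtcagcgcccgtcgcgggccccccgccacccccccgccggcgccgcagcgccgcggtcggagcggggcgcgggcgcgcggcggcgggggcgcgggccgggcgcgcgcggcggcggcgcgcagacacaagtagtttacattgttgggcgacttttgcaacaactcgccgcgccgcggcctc

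The upstream NR5A2 window held 1 core element on the plus strand, 84 bases before the start. The downstream NR5A2 window held TGTTTAC on the minus strand, 105 bases before the start, printed as its reverse complement. That window, from 200042341, lies deeper in the gene than the upstream one, from 200027460. The upstream window is the nearer of the 2 to the start edge, where the strongest site lay, and it held no forkhead word. The RXRA window held no match to any of these words, and its GC content was 84%, against a median of 58.7% over all 35116 promoter windows. Windows were found for 7 of the 9 members, 17 in all. Of these, 1 window (5.88%) held a forkhead word, against 5.97% of all windows, and 5 windows (29.4%) of NR5A2, NR1H4 and PPARG held the core element, against 13.8% of all windows. Some windows of PPARG overlap each other and share a match. For 39 other nuclear receptor genes, 34 had windows, and 2 of 79 windows (2.53%) held a forkhead word and 11 (13.9%) the core element. Counted by gene, the core element was found in 3 of 7 members and in 8 of these 34 genes. A DR1 repeat (core elements with 1 base between them) and the HNF4-type word CAAAGTCCA, sought in the same way, matched none of the 17 windows, against 0.0228% and 0.384% of all windows. A match is a description of letters and not a measured binding site.

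Every one of the 9 intervals held at least 1 FOXA2 site found in both replicates, but their number and strength were very unequal. NR5A2 held 11 of the 28 shared sites (39.3%), NR2F2 held 4, NR1H4 and PPARG held 3 each, VDR and RXRA held 2 each, and NR1I2, NR0B2 and PPARA held 1 each. Because the intervals differ in length, the counts were also set per 100 kb. NR5A2 had 4.38 shared sites per 100 kb and NR2F2 had 3.48, while PPARA had 0.515. The 9 intervals together had 1.73 per 100 kb, and without NR5A2 the other members had 1.24. Occupied genome windows of 100 kb, meaning windows with a peak of either replicate, had a mean of 1.26. That value is not matched for length, since all members are longer and leaving out empty windows raises the density of short windows more. Occupied windows of 104 kb held a mean of 1.3 shared sites, and those of 251 kb a mean of 2.5.

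**Figure D1:**
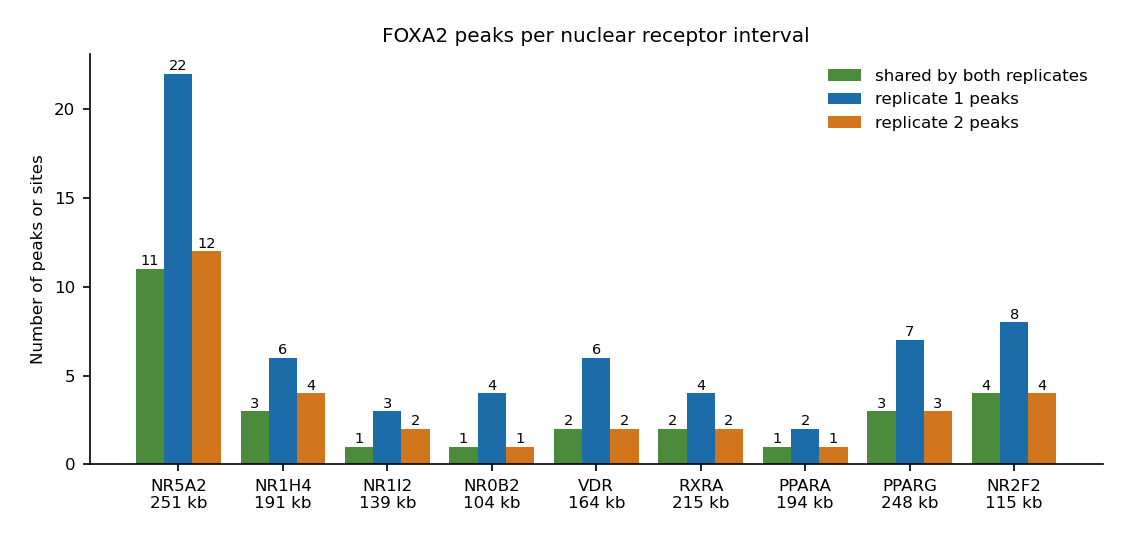
Number of shared FOXA2 sites, replicate 1 peaks and replicate 2 peaks in each nuclear receptor interval, with the interval length under its name. NR5A2 had the most of each kind, with 11 shared sites from 22 replicate 1 peaks and 12 replicate 2 peaks, and PPARA had 1 shared site from 2 replicate 1 peaks and 1 replicate 2 peak.

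Set against occupied genome windows of its own length, the NR5A2 interval was the densest of the members. At least 11 shared sites were held by 1.59% of the 9741 windows of 251 kb, whose median was 2. At least 4 shared sites, the NR2F2 count, were held by 10.4% of windows of 115 kb. The remaining counts lay in the ordinary range of such windows. As many sites as in the NR1H4 interval were held by 29.8% of windows of its length, as many as in PPARG by 36.8%, as many as in VDR by 42.0% and as many as in RXRA by 48.6%. For NR0B2, NR1I2 and PPARA, with 1 site each, the shares were 62.8%, 67.4% and 72.5%. These shares describe the background and are not tests, since windows along a chromosome are not independent.

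**Figure D2:**
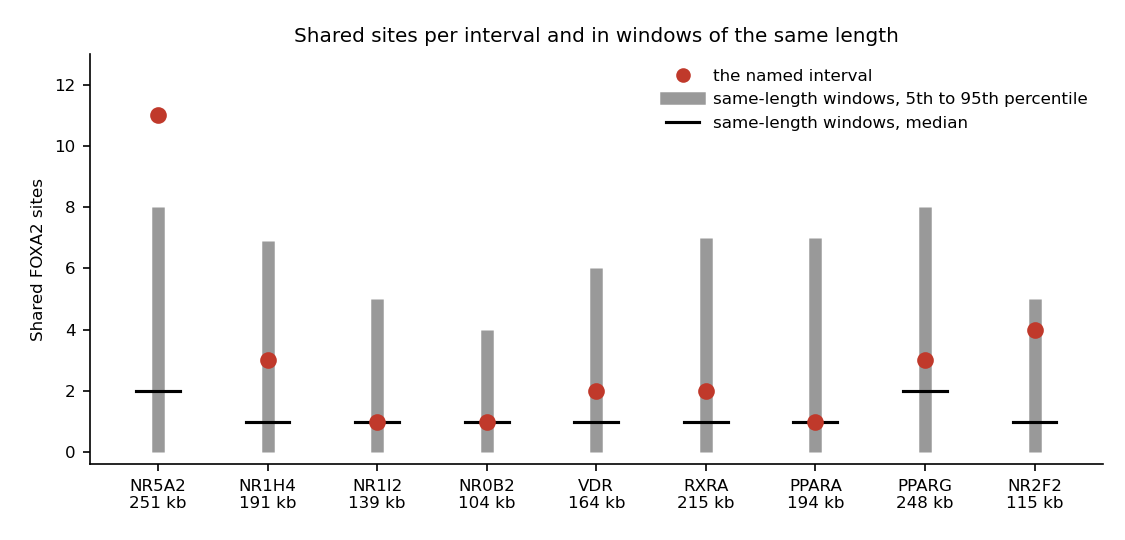
Shared FOXA2 sites in each nuclear receptor interval (red points) and in all occupied genome windows of the same length (black line, median; grey bar, 5th to 95th percentile). The NR5A2 point, at 11, lies above the 95th percentile of 8, and the other 8 points lie within the grey bars.

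Peaks of the intervals were found again in the other replicate about as often as peaks in general. Of the 62 replicate 1 peaks, 28 were shared (45.2%, 95% Wilson interval 33.4% to 57.5%), against 38.1% of the whole replicate 1 list. Of the 31 replicate 2 peaks, 28 were shared (90.3%, 75.1% to 96.7%), against 90.5% of the whole replicate 2 list. Both intervals contain the value of the whole list and cover counting error only. All 9 replicate 1 peaks of the intervals that scored 20 or more were shared, against 94.6% of such peaks genome-wide. From 10 to 19 the share was 10 of 16 (62.5%), against 59.2%, from 7 to 9 it was 6 of 21 (28.6%), against 24.3%, and from 3 to 6 it was 3 of 16 (18.8%), against 7.78%. The 34 peaks found in replicate 1 alone scored 4 to 14, with 28 of them under 10, and the 3 found in replicate 2 alone scored 7 to 10. No peak of a single replicate reached a score of 20.

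The shared sites of the receptors were of ordinary strength as a set, with a few strong ones. Their median mean score was 11.8 (interquartile range 8.38 to 21.5), against 14.5 (9.5 to 24.5) for all 24345 shared sites. A mean score of at least 20 was reached by 9 of the 28 (32.1%), against 33.9% of all shared sites, and a mean of at least 50 by 2 (7.14%), against 8.09%. Replicate scores rose together over the 28 sites, with a Spearman's rho of 0.805 and a Pearson's r of the log2 scores of 0.854. These are correlations across sites of the same 2 libraries, and no p-value is given.

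**Figure D3:**
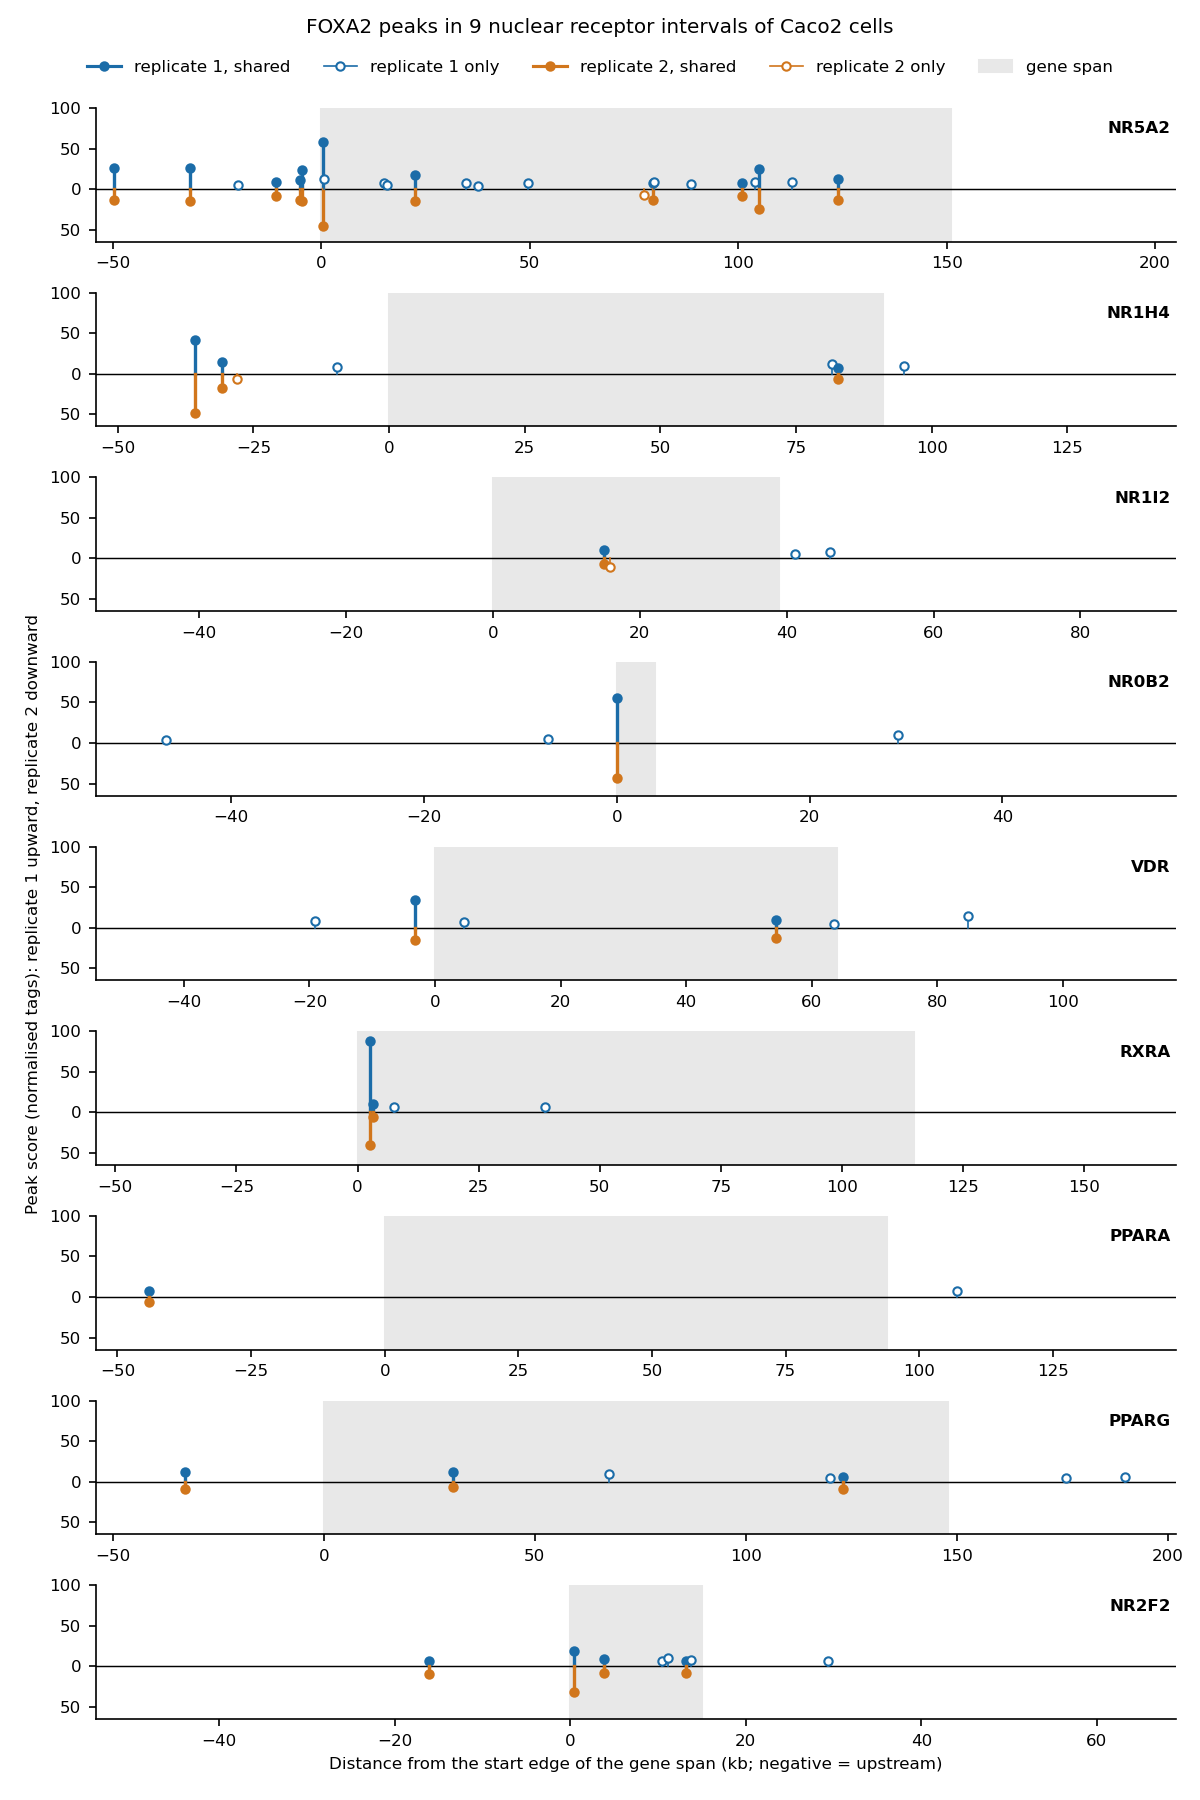
FOXA2 peaks in the 9 intervals by distance from the start edge of the gene span in kb, with replicate 1 scores drawn upward and replicate 2 scores downward in normalised tags, filled circles for shared sites and open circles for peaks of a single replicate. Tall shared peaks stand at or near the start edge in NR5A2, NR0B2 and RXRA, while the tallest NR1H4 peak lies 35.7 kb upstream and PPARA holds no peak inside its span.

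Placed along the genes, shared sites lay inside the gene span or upstream of it, and none lay downstream. The span is the interval without its flanks, to the nearest kb, and exceeded the RefSeq gene length on GRCh38.p14 by 0.451 kb (NR1H4) to 2.61 kb (NR1I2). A distance from its start edge can thus differ from the distance to the outermost annotated start by about that much. NR5A2, RXRA and PPARG also have annotated starts much deeper in the gene, and distances to those were not measured. The annotated starts of NR2F2 whose windows were searched were not placed relative to its start edge either. Its strongest site is thus not shown to be near them. Strand came from RefSeq for 7 genes, and NR0B2 and VDR were placed on the minus strand from textbook knowledge. The spans held 17 shared sites in 721 kb (2.36 per 100 kb), the upstream flanks held 11 in 450 kb (2.44 per 100 kb), and the downstream flanks held 0 of 28 in 450 kb, which allows a share of up to 10.7% for counting error. The downstream flanks were not empty of peaks. They held 9 replicate 1 peaks in 7 of the intervals, none with a counterpart in replicate 2. These peaks scored 5 to 14. Over the whole replicate 1 list, 7.78% of peaks were shared at scores of 3 to 6, 24.3% at 7 to 9 and 59.2% at 10 to 19. Of the shared sites, 60.7% were in gene spans (95% Wilson interval 42.4% to 76.4%), which made up 44.5% of the length, a value inside that interval. The same share over all shared sites of the genome was not determined. The strongest sites of NR5A2, NR0B2 and NR2F2 lay 0.402 kb, 0.08 kb and 0.434 kb inside the edge. Their spans exceed the gene length by more than that (1.29 kb, 1.51 kb and 0.782 kb), so these sites may lie upstream of the gene.

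A group of 5 genes, NR5A2, NR0B2, VDR, RXRA and NR2F2, had a shared FOXA2 site within 5 kb of the start edge, and the other 4 had none. The 8 such sites were 28.6% of the shared sites in 5.55% of the length. The share of all 24345 shared sites that lie this near to a gene start was not determined, since no hg19 annotation was used. Mean scores of the 8 sites ran from 8 to 64 with a median of 25, and those of the other 20 sites ran from 6.5 to 44.5 with a median of 10.2. The start sites carried 52.0% of the summed replicate 1 score of all shared sites and 43.5% of the summed replicate 2 score. In each of these 5 genes the strongest shared site of the interval was a start site, and in NR5A2, NR0B2 and NR2F2 it lay within 1 kb of the edge.

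**Figure D4:**
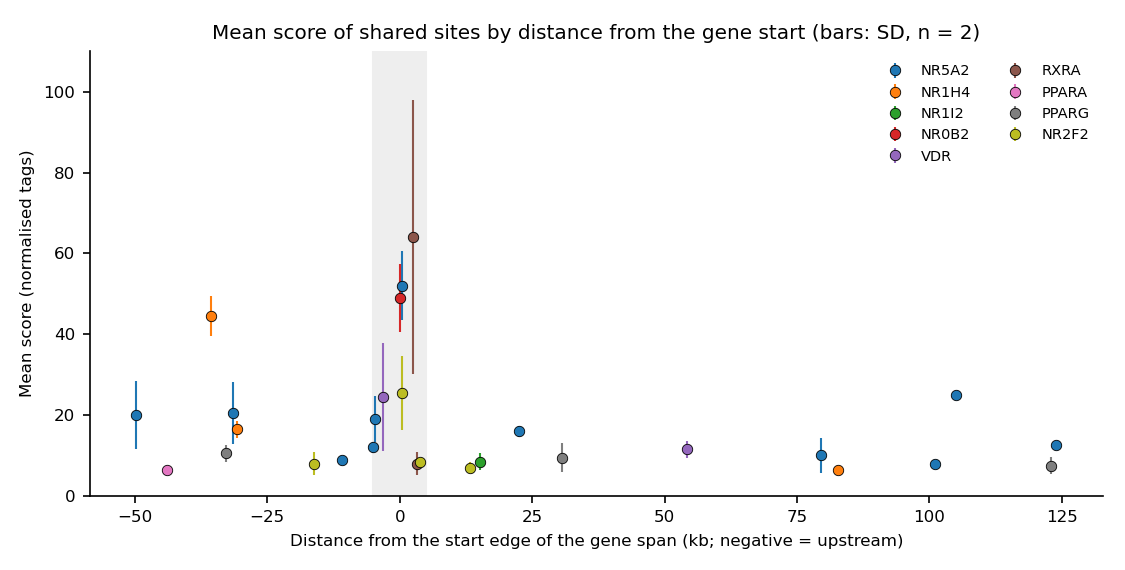
Mean score of each of the 28 shared sites (points, coloured by gene; bars, SD of the 2 replicates) against its distance from the start edge of the gene span in kb, with 5 kb on either side shaded. The sites with the 3 highest means, in RXRA (64), NR5A2 (52) and NR0B2 (49), all lie in the shaded band, and the next, in NR1H4 (44.5), lies 35.7 kb upstream.

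Among the receptors of the bile acid axis, NR5A2 combined a strong start site with a series of others on both sides. Its strongest site, on chromosome 1 at 199996341 to 199996463 and 0.402 kb inside the start edge, scored 58 in replicate 1 and 46 in replicate 2 (52 ± 8.49, SD, n = 2). It ranked 1753 of 63949 peaks in replicate 1 and 1892 of 26907 in replicate 2. A replicate 1 peak with a score of 13 at 199996695 to 199996817 lay 0.354 kb further into the gene and had no counterpart. Upstream, 5 shared sites were spread over the flank. The site at 199991344 to 199991466 scored 23 in replicate 1 and 15 in replicate 2. The site at 199990860 to 199990982, 0.484 kb from it and the closest pair of the locus, scored 11 in replicate 1 and 13 in replicate 2. The upstream flank of NR5A2 was occupied in both replicates out to its border. Further out, 199985025 to 199985147 scored 9 in both replicates and 199964562 to 199964684 scored 26 in replicate 1 and 15 in replicate 2. The outermost site, 199946090 to 199946212 at 49.8 kb from the edge, scored 26 in replicate 1 and 14 in replicate 2.

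Inside NR5A2, 5 more shared sites followed the start site. Between 1 kb and 75 kb from the edge, a stretch not set in advance, 1 of 6 replicate 1 peaks was shared. It lay at 200018396 to 200018518 with scores of 17 in replicate 1 and 15 in replicate 2. The unshared peaks of this stretch scored 4 to 8. Of all replicate 1 peaks, 7.78% were shared at scores of 3 to 6, 24.3% at 7 to 9 and 59.2% at 10 to 19. The strongest of the inner sites, at 200100859 to 200100981 and 105 kb from the edge, scored 25 in both replicates, an SD of 0. Its neighbour at 200097336 to 200097458, 3.52 kb away, scored 8 in both. The site at 200120056 to 200120178 scored 12 in replicate 1 and 13 in replicate 2. That at 200075585 to 200075707 scored 7 in replicate 1 and 13 in replicate 2, and its ratio of 0.538 (replicate 1 over replicate 2) was the lowest of the 28 sites. The 11 NR5A2 sites had mean scores of 8 to 52 with a median of 16, and gaps of 0.484 kb to 57.2 kb between neighbours. The start site accounted for 26.1% of their summed replicate 1 score and 24.7% of their summed replicate 2 score, so the signal of this locus was spread over many sites.

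NR0B2, the small corepressor gene, showed the opposite arrangement, with its shared signal in a single site. That site, on chromosome 1 at 27240859 to 27240981, lay 0.08 kb inside the upper edge of the span, from which the gene is read. It scored 55 in replicate 1 and 43 in replicate 2 (49 ± 8.49, SD, n = 2), and ranked 1953 in the replicate 1 list and 2149 in the replicate 2 list. The nearest other shared site was 143 kb away. The span exceeds the RefSeq gene length by 1.51 kb, so it was not determined whether the strong site lies in the gene itself. The remaining 3 peaks of the interval were found in replicate 1 alone and scored 10, 5 and 4. In RefSeq the genes SFN, GPN2, GPATCH3, NUDC and KDF1 also lie within 50 kb of NR0B2, so position does not tie a flanking peak to this gene.

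NR1H4, the bile acid receptor itself, had its strongest FOXA2 site far from its start. On chromosome 12, the site at 100831278 to 100831400, 35.7 kb upstream of the edge, scored 41 in replicate 1 and 48 in replicate 2 (44.5 ± 4.95, SD, n = 2). A further shared site 5.0 kb from it, at 100836279 to 100836401, scored 15 in replicate 1 and 18 in replicate 2. Within the span the shared site was weak, with scores of 7 in replicate 1 and 6 in replicate 2 at 100949642 to 100949764, 82.7 kb from the edge, and a replicate 1 peak of 12 stood 1.09 kb from it. No peak of either replicate lay within 5 kb of the NR1H4 start edge. The peak nearest to it was found in replicate 1 alone, scored 8 and lay 9.62 kb upstream.

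Of the xenobiotic and vitamin D receptors, NR1I2 was sparsely occupied. Its shared site, on chromosome 3 at 119514042 to 119514164 and 15.1 kb into the span, scored 10 in replicate 1 and 7 in replicate 2 (8.5 ± 2.12, SD, n = 2). The centres called in the replicates were 57 bp apart, the widest separation among the 28 sites, whose median was 12.5 bp. A replicate 2 peak of 10 stood 0.77 kb away without a replicate 1 partner. The downstream flank, which also holds part of GSK3B in RefSeq, had replicate 1 peaks of 6 and 8.

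VDR had a stronger site just outside its start edge. On chromosome 12 at 48302130 to 48302252, 3.19 kb upstream, it scored 34 in replicate 1 and 15 in replicate 2 (24.5 ± 13.4, SD, n = 2). The ratio of replicate 1 to replicate 2 was 2.27, the highest of the 28 sites. The other shared site, 54.3 kb into the gene at 48244667 to 48244789, scored 10 in replicate 1 and 13 in replicate 2. The highest score of any peak found in a single replicate among the members was also here, 14 in replicate 1 at 48214009 to 48214131 in the downstream flank. HDAC7 neighbours VDR on that side in RefSeq.

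RXRA, the common heterodimer partner, carried the site with the highest mean score of all members. On chromosome 9 at 137220460 to 137220582, 2.52 kb into the span, it scored 88 in replicate 1 and 40 in replicate 2 (64 ± 33.9, SD, n = 2). It ranked 712 in replicate 1 and 2462 in replicate 2, and held 89.8% of the shared score of the interval in replicate 1 and 87.0% in replicate 2. A weak shared site, with scores of 10 in replicate 1 and 6 in replicate 2, lay 0.756 kb further in at 137221216 to 137221338. Beyond these, replicate 1 alone had a peak of 6 at 7.52 kb and another of 6 at 38.8 kb, and the rest of the span and both flanks held no peak of either list.

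PPARA, of the fatty acid receptors, had the fewest shared sites per 100 kb of the 9 members. It held no peak of either replicate in its span of 94 kb. Its shared site, on chromosome 22 at 46501979 to 46502101, lay 44.0 kb upstream of the edge and scored 7 in replicate 1 and 6 in replicate 2 (6.5 ± 0.707, SD, n = 2). The other PPARA peak scored 7 in replicate 1 alone, in the downstream flank. PPARG held 3 shared sites on chromosome 3, none near its start edge and none with a score above 12. The upstream one, at 12295127 to 12295249 and 32.8 kb from the edge, scored 12 in replicate 1 and 9 in replicate 2. The site at 12358562 to 12358684, 30.6 kb into the span, scored 12 in replicate 1 and 7 in replicate 2. The site at 12450653 to 12450775, 123 kb into the span, scored 6 in replicate 1 and 9 in replicate 2. All 3 were isolated and lay at least 30 kb from each other and from any further shared site. The summed shared score was 30 in replicate 1 and 25 in replicate 2 over the 248 kb of the PPARG interval. The NR0B2 start site alone scored 55 in replicate 1 and 43 in replicate 2.

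NR2F2 held 3 shared sites in its gene span of 15 kb, or 20 per 100 kb. Only NR0B2 had a higher value, 25 per 100 kb, from 1 site at the edge of a span of 4 kb. That span exceeds the RefSeq gene length by 1.51 kb, so the order of these 2 genes is uncertain. The strongest, on chromosome 15 at 96869373 to 96869495 and 0.434 kb inside the edge, scored 19 in replicate 1 and 32 in replicate 2 (25.5 ± 9.19, SD, n = 2). A site at 96872823 to 96872945, 3.45 kb from the first, scored 9 in replicate 1 and 8 in replicate 2. One at 96882131 to 96882253, near the far end of the gene, scored 6 in replicate 1 and 8 in replicate 2. Apart from the start site, the NR2F2 sites were thus weak. Upstream by 16.1 kb, 96852884 to 96853006 scored 6 in replicate 1 and 10 in replicate 2. A further 3 replicate 1 peaks of 7, 10 and 8 stood in the span without a counterpart. Of the 4 NR2F2 sites, 3 scored higher in replicate 2, as did 10 of all 28 sites.

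The replicates gave some receptor sites unequal strength. Over the 28 sites, 15 scored higher in replicate 1, 10 in replicate 2 and 3 equally, and their median ratio (replicate 1 over replicate 2) was 1.13, against 1.20 over all shared sites. At the RXRA start site the ratio was 2.20 (95% interval 1.66 to 2.95), and at the VDR upstream site it was 2.27 (1.41 to 3.66). At the NR2F2 start site it was 0.594 (0.398 to 0.909), at the strongest NR1H4 site 0.854 (0.626 to 1.15) and at the NR5A2 site at 200075585 it was 0.538 (0.27 to 1.08). These 5 of the 28 sites (17.9%) had intervals that left out 1.20, with 2 above it and 3 below it, against 21.0% of all shared sites. The intervals are exact binomial ones on tags estimated from the rounded scores, and they cover counting error only. For the start sites of NR5A2 and NR0B2, with ratios of 1.26 (0.954 to 1.71) and 1.28 (0.949 to 1.73), the interval contained 1.20. A ratio above 2 was seen at 2 of the 28 sites (7.14%), against 10.3% of all shared sites. With 2 replicates the SD of a single site is itself uncertain, and the order of the RXRA, NR5A2 and NR0B2 start sites was not the same in both lists. In replicate 1 the RXRA site scored highest at 88, above NR5A2 with 58 and NR0B2 with 55. In replicate 2 it scored 40, below NR5A2 with 46 and NR0B2 with 43, and the highest replicate 2 score of the members was 48, at the NR1H4 site 35.7 kb upstream.

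**Figure D5:**
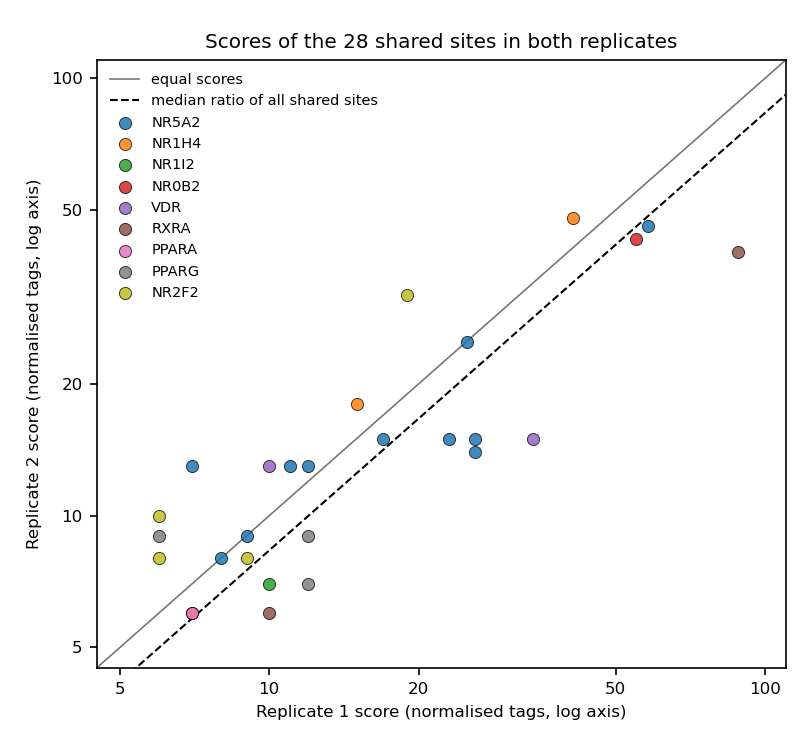
Replicate 2 score against replicate 1 score (normalised tags, log axes) for the 28 shared sites, coloured by gene, with the line of equal scores and a dashed line at the median ratio of all shared sites, 1.20. The RXRA and VDR sites farthest below the lines had ratios of 2.20 and 2.27, the NR2F2 start site lies above them with 0.594, and 1 NR1H4 and the PPARA site, both with 7 in replicate 1 and 6 in replicate 2, fall on the same point.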

How the data were processed

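The submitters' processing notes name the build hg19 and the tools HOMER 1.2 and Bowtie 1.0.0. The authors called peaks with HOMER findPeaks in its factor style, in each replicate separately and against an input library, per the file headers, with 4-fold excess over input and over the local 10000 bp, a Poisson p-value of 0.0001 each and a false discovery rate of 0.001. The deposited peak width was 123 bp (replicate 1) or 151 bp (replicate 2), and peaks closer than 244 bp or 300 bp could not be called apart. The deposited score was read as the authors' tag count scaled to 10000000 tags and rounded. Its sum came within 0.45% (replicate 1) and 0.196% (replicate 2) of the tags in peaks given by the headers. Scores are not corrected for copy number, which is altered in Caco2.

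Shared sites came from bedtools 2.31.1, and the rest from Python 3.11.15, numpy 2.4.6, pandas 2.3.3 and scipy 1.17.1. The overlap step was run on simulated lists with planted shared peaks. The remaining simulated peaks lay beyond any real peak, so the run checked the code and not overlap by chance. The members and lists were chosen with earlier results of these data known. Named are the 3 shared sites of best mean rank per interval, shared sites within 5 kb of the start, the closest pair and single-replicate peaks of at least 20, and further sites named were chosen after their values were seen. No test was made between conditions, since the design has 1. Other nuclear receptor genes were not placed on hg19, and motifs in peaks were not analysed here. Alternatives were other overlap rules, a score limit, other flanks and each replicate alone.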

Additional observations from a re-analysis of the deposited data

How the results depend on the processing

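The overlap rules changed little. A reciprocal overlap of 50% and midpoints within 100 bp or 500 bp left every result over the 9 intervals together within 1.5 times its count, or within its interval or SD. With peaks of at least 10 in both lists, there were 15 shared sites (0.925 per 100 kb, a median of 1 per interval) and 60.0% of replicate 1 peaks were shared. NR1I2, PPARA and PPARG then had no shared site, and RXRA and NR2F2 had 1 each. With flanks of 20 kb, 77.3% of shared sites lay in gene spans, and NR2F2 (7.27 per 100 kb) came before NR5A2 (4.71). Without flanks, 17 sites were left, a median of 1 per interval. NR0B2 (25 per 100 kb, from 1 site) and NR2F2 (20) then came before NR5A2 (3.97). Both settings removed the only shared site of PPARA, which was left with none. They also removed the strong upstream site of NR1H4, whose strongest site then had a mean of 6.5. Using 1 replicate alone gave 31 to 62 peaks, 1.91 to 3.82 per 100 kb, a median of 2 to 6 per interval and a median strongest score of 32 to 34. The 62, 3.82, 6 and 34 come from replicate 1, whose list is longer. The share in gene spans was 59.7% to 61.3%. Over single intervals, 23 of 133 values moved. The motif alternatives were not run, since no genome of the build was used. No paired analysis was possible because the design has a single immunoprecipitated group. Depth limits weak sites: the lowest shared mean, 6.5, stands for 18.3 tags in replicate 1 and 9.45 in replicate 2.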

Other observations

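Strong FOXA2 sites lay beyond the intervals of the most occupied receptors. In the 200 kb upstream of the NR2F2 interval there were 12 shared sites (6.0 per 100 kb), and the strongest, on chromosome 15 at 96714256 to 96714378, scored 218 in replicate 1 and 203 in replicate 2 (210.5 ± 10.6, SD, n = 2). It lies 155 kb upstream of the NR2F2 start edge, and in the 200 kb downstream a single shared site, at 97017731 to 97017853, scored 95 in replicate 1 and 97 in replicate 2. Both exceed any site within the NR2F2 interval. Downstream of the NR5A2 interval, 200 kb held 9 shared sites, led by chromosome 1 at 200341276 to 200341398 with 230 in replicate 1 and 224 in replicate 2 (227 ± 4.24, SD, n = 2), while the 200 kb upstream held none. NR5A2 thus had no shared site in its downstream flank but several farther on. How many genome windows of 200 kb hold as many shared sites was not counted. Among occupied windows of 215 kb, the 95th percentile was 7 shared sites.

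Around the other receptors the surroundings differed. VDR had 5 shared sites in the 200 kb upstream and 4 downstream, the strongest at 48046716 to 48046838 with 44 in replicate 1 and 32 in replicate 2. NR1I2 had 4 upstream, led by 119396355 to 119396477 with 38 in replicate 1 and 17 in replicate 2, above its own site. RXRA, PPARA and NR1H4 each had 1 upstream and none downstream. PPARG had 1 on each side, and NR0B2 had 2 downstream and none upstream. These sites were chosen after their values were seen, and nothing in the data ties them to a receptor gene.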
